A study of Mus musculus with 4 samples.

Results

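The CC chemokines are small secreted proteins with adjacent cysteines near the N terminus that attract monocytes, T cells and other leukocytes through receptors of the Ccr family. In macrophages their genes are classical outputs of inflammatory signalling, and several lie side by side in clusters. Ccl2, Ccl7 and Ccl12 act mainly on the monocyte receptor Ccr2, Ccl3, Ccl4 and Ccl5 attract monocytes and T cells, and Ccl6 and Ccl9 form a group of mouse ligands of Ccr1. Ccl22, a ligand of Ccr4, and Ccl24, a ligand of Ccr3, are often read as marks of alternative (M2) activation.

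These 10 genes were taken as all probe sets that carry 1 of their symbols alone, which gave 12 probe sets of 45101 on the array and 10 genes of 18194. The cells were RAW264.7, an established mouse macrophage line, grown for 4 days in normoxia without IL6 (NC), in normoxia with 25 ng/ml IL6 (NC+IL6), in 1% oxygen without IL6 (HC) or in 1% oxygen with 25 ng/ml IL6 (HC+IL6). RNA of each condition was hybridized to 1 Affymetrix array, so there were no replicates and no test between conditions. A transformed cell line stands in for tissue macrophages here, and no source used here states the oxygen level of normoxia.

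Values are log2 signals made by the MAS5 method, with each array scaled to the same trimmed mean signal. Each array was given a floor at the 95th percentile of genes restricted to other tissues, at log2 6.73 for NC, 6.74 for NC+IL6, 6.68 for HC and 6.41 for HC+IL6. Ratios are differences of log2 signals between arrays for the same probe set, and signals of different members were not ranked against each other. A gene was called higher or lower when the brighter of both arrays exceeded its floor and they differed by 2-fold or more after a dimmer signal was raised to its floor, so that a fold against such a signal is a lower bound. As the only measure of error, probe sets of the same gene disagreed with a pooled SD of the log2 ratio of 0.35 for HC over NC, 0.33 for HC+IL6 over NC+IL6, 0.28 for NC+IL6 over NC and 0.32 for HC+IL6 over HC, which is not a spread between cultures. All 10 macrophage markers were above the floor on all 4 arrays, whereas of 28 measured markers of other cell types 3 were above it on any array (S100a8, Kdr and Epcam) and 0 on all. The summed signal of these 28 markers ranged from 779 in NC to 1091 in HC+IL6, and its part in the results was not tested. That of the macrophage markers ranged from 128200 to 132150. In RNA from whole cultures, fewer cells that express a gene and less RNA of it per cell cannot be told apart.

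Of the 10 CC chemokines, 3 were above the floor on all 4 arrays (Ccl3, Ccl4 and Ccl9), 3 on some of them (Ccl2, Ccl5 and Ccl6), and 4 stayed under it everywhere (Ccl7, Ccl12, Ccl22 and Ccl24). IL6 went with higher Ccl2, Ccl3 and Ccl4 at both oxygen levels. With hypoxia only Ccl6 was called, in its brighter probe set alone. None of the 5 or 6 members above a floor in each comparison was called lower. Of all genes above the floor, 1.04% to 1.99% were, so a count of 0 among so few members says little.

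**Figure D1:**
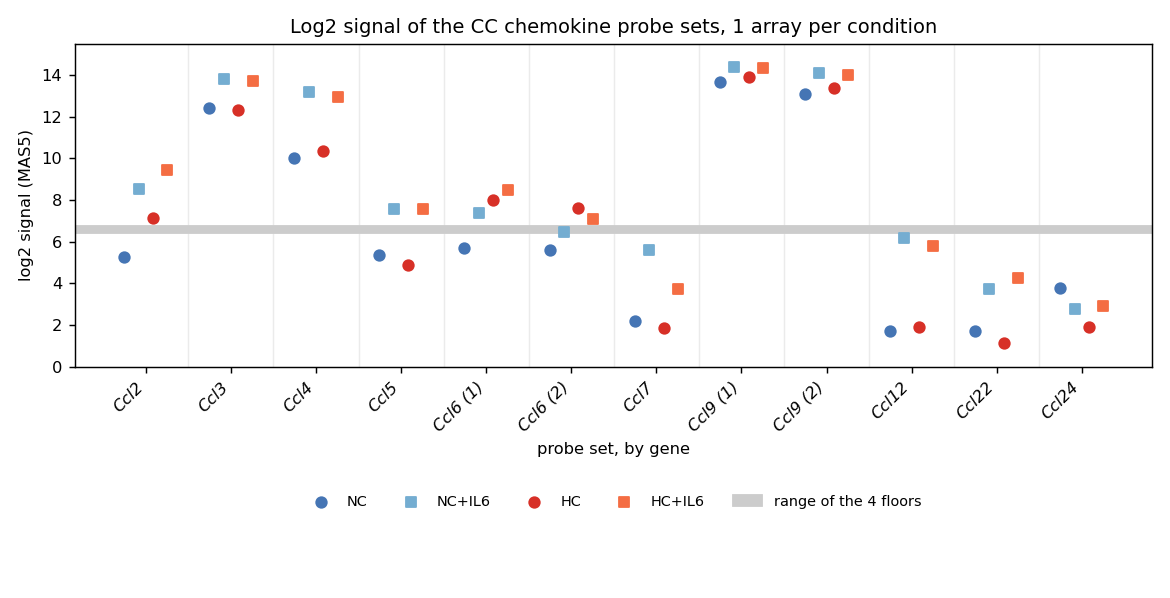
Log2 signal (vertical axis) of the 12 CC chemokine probe sets, with 1 point for each of the 4 arrays and the range of the 4 background floors as a grey band. Squares (with IL6) lie above circles (without IL6) for Ccl3, Ccl4 and Ccl9, the 3 genes above the band on every array, and the 4 genes Ccl7, Ccl12, Ccl22 and Ccl24 have no point above it.

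Ccl2, also known as MCP-1, is the main attractant of monocytes. Its log2 signal was 5.27 in NC against 8.54 in NC+IL6, and 7.12 in HC against 9.43 in HC+IL6. It was under the floor in NC alone, and both arrays with IL6 were brighter than both without. In normoxia IL6 was associated with a signal at least 3.52-fold higher, and in hypoxia with one 4.98-fold higher (log2 ratio 2.32). With IL6 present, HC+IL6 was 1.86-fold above NC+IL6 (log2 ratio 0.89), under the 2-fold threshold. Without IL6, the floor leaves only a bound of at least 1.31-fold for HC over NC, although the signals themselves were 38.6 and 139.

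The other Ccr2 ligands lie beside Ccl2 on chromosome 11 in the RefSeq annotation of GRCm38.p6, where the order is Ccl2, Ccl7, Ccl11, Ccl12, Ccl8 and Ccl1. Ccl7 had log2 signals of 2.21 in NC against 5.62 in NC+IL6, and 1.84 in HC against 3.74 in HC+IL6. Ccl12 had 1.70, 6.18, 1.88 and 5.79 on the same arrays. For both genes the arrays with IL6 held the higher values, but all 8 lay under the floor and no fold can be given.

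Ccl3 and Ccl4, the macrophage inflammatory proteins 1 alpha and 1 beta, are neighbours in the second cluster on chromosome 11, in the order Ccl5, Ccl9, Ccl6, Ccl3 and Ccl4. Ccl4 gave the largest fold with IL6, at both oxygen levels, of the members above the floor on both arrays compared, with log2 signals of 10.03 in NC against 13.20 in NC+IL6, and 10.38 in HC against 12.97 in HC+IL6. The arrays with IL6 were 9.01-fold higher in normoxia and 6.03-fold higher in hypoxia (log2 ratios 3.17 and 2.59), which placed Ccl4 at rank 9 of 9246 and rank 10 of 9878 genes above a floor. Hypoxia moved Ccl4 by far less, by a log2 ratio of 0.35 without IL6 and of -0.23 with it.

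Ccl3 had log2 signals of 12.43 in NC against 13.80 in NC+IL6, and 12.31 in HC against 13.70 in HC+IL6. The pair with IL6 stood above the pair without, 2.57-fold in normoxia and 2.63-fold in hypoxia. The log2 ratios for hypoxia were -0.13 without IL6 and -0.10 with it, both smaller than the disagreement between probe sets. The hypoxia ratio with IL6 minus that without was 0.03 for Ccl3 and -0.58 for Ccl4, values that rest on 4 arrays and were not tested.

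The promoter of Ccl3, the only one of the 3 members called with IL6 that has a sequence in the RefSeq promoter table, is given from 250 bases before to 50 bases after its start (GRCm38.p6, chr11:83649329-83649628, minus strand), with the transcribed bases in capitals.
Ccl3: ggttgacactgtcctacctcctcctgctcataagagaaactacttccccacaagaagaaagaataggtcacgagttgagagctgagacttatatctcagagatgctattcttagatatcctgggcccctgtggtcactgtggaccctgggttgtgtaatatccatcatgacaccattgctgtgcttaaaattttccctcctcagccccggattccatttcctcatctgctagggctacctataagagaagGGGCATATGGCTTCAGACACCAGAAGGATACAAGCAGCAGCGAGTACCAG

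Ccl5, or RANTES, an attractant of T cells that is induced by both NF-kB and interferon signalling, had log2 signals of 5.35 in NC against 7.56 in NC+IL6, and 4.87 in HC against 7.56 in HC+IL6. It was above the floor only on the arrays with IL6, whose deposited signals were the same within a log2 ratio of 0.00. The arrays without IL6 were both under the floor. Against those floors the signal with IL6 was at least 1.78-fold higher in normoxia and at least 1.84-fold higher in hypoxia, and both bounds were under the threshold.

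Ccl6 and Ccl9 are adjacent on chromosome 11, and their start regions share sequence. In the promoter table, a stretch of 40 bases at the start of both genes matched at 36 positions (90%), from base 10 to 49 of Ccl9 and from base -25 to 15 of Ccl6, counted from the annotated starts. It is shown in capitals because the longest ungapped match in any other of the 10 pairs among the 5 members with a promoter was 23 bases. The windows are chr11:83578587-83578886 for Ccl9 and chr11:83593038-83593337 for Ccl6, both on the minus strand of GRCm38.p6.
Ccl9: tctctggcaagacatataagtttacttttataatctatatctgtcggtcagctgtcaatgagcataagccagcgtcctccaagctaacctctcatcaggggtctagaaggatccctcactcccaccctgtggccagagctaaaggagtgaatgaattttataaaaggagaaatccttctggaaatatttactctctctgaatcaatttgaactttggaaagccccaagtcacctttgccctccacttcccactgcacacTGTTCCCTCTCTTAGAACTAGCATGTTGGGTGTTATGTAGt
Ccl6: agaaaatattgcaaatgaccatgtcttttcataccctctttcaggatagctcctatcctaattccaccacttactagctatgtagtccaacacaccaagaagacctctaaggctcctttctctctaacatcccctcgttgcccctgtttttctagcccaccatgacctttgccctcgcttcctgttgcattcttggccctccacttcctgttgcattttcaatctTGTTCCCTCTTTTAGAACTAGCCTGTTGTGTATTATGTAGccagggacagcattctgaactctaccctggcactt

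The signals of the 2 genes did not move alike. Ccl9 was well above the floor on all 4 arrays, with log2 signals of 13.67 in NC against 14.40 in NC+IL6, and 13.90 in HC against 14.35 in HC+IL6 for the brighter probe set and 13.11, 14.11, 13.39 and 14.03 for the other. Both probe sets were higher with IL6, 1.66-fold and 2.004-fold in normoxia and 1.36-fold and 1.56-fold in hypoxia. Only the second in normoxia reached the threshold, which 3.03% of probe sets above the floor did. Hypoxia gave ratios between -0.08 and 0.28 for both probe sets.

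Ccl6 was the only member called higher with hypoxia, in its brighter probe set alone. Its brighter probe set had log2 signals of 5.71 in NC against 7.38 in NC+IL6, and 7.99 in HC against 8.47 in HC+IL6, and was under the floor in NC alone. HC was at least 2.41-fold above NC, and HC+IL6 was 2.14-fold above NC+IL6 (log2 ratio 1.10). The second probe set read 5.62, 6.45, 7.63 and 7.08 and was under the floor in NC and NC+IL6. Its log2 ratios for hypoxia were therefore bounds of at least 0.90 without IL6 and 0.34 with it, and neither reached the threshold. On IL6 in hypoxia the probe sets had opposite signs, 0.48 and -0.55, a gap of 1.03 against a pooled SD of 0.32. The calls of Ccl6 also depend on the processing. HC+IL6 over NC+IL6 fell short of 2-fold under each of the 3 other scalings of the arrays, and in both hypoxia comparisons the call was lost with a floor at a log2 signal of 7.5. Ccl2 lay close to Ccl6 in HC+IL6 over NC+IL6. With the mean over probe sets its log2 ratio was 0.89, against 0.86 for Ccl6.

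Ccl22 and Ccl24 were not measurable above background. Ccl22, on chromosome 8 near Ccl17, had log2 signals of 1.72 in NC against 3.72 in NC+IL6, and 1.14 in HC against 4.25 in HC+IL6. Ccl24, on chromosome 5 beside Ccl26, had 3.79, 2.79, 1.89 and 2.92. At these signals neither a difference nor its absence can be read.

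Counted over the family, 1 of the 10 genes (Ccl6, of 5 above the floor) was called higher in HC over NC, where 3.69% of 9439 genes above the floor were called higher and 1.07% lower. In HC+IL6 over NC+IL6 it was again 1 gene (Ccl6, of 6 above the floor), against 2.64% of 9794 genes higher and 1.49% lower. In NC+IL6 over NC, 3 genes (Ccl2, Ccl3 and Ccl4, of 6 above the floor) were called higher, against 3.53% of 9246 genes higher and 1.04% lower. In HC+IL6 over HC the calls were again these 3 of 6, against 2.41% of 9878 genes higher and 1.99% lower. The median log2 ratio of the members above the floor was 0.35, -0.02, 1.94 and 1.86 in this order, beside 0.05, 0.04, -0.03 and -0.02 for all genes above the floor. With signals under the floor set to their bound it was 0.35, -0.02, 1.10 and 1.14. Only members that passed the floor enter these medians, which are descriptions. The comparisons share arrays, so they are not separate evidence.

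**Figure D2:**
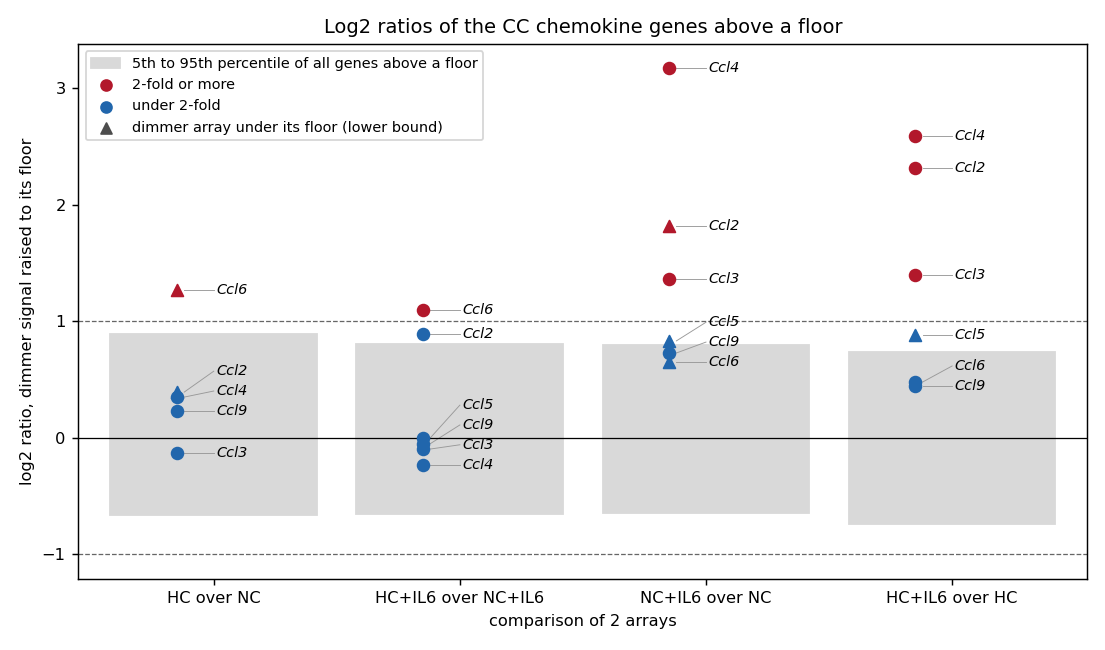
Log2 ratio (vertical axis, dimmer signal raised to its floor) of each CC chemokine above a floor in the 4 comparisons of 2 arrays (horizontal axis), over a grey box from the 5th to the 95th percentile of all genes above a floor. Ccl2, Ccl3 and Ccl4 lie above the 2-fold line in both IL6 comparisons and Ccl6 in both hypoxia comparisons, and triangles are lower bounds.

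Beside these members, 8 of 11 other CC chemokines had a probe set, and only Ccl25 and Ccl28 were above a floor. Ccl25, a thymic and gut chemokine, had log2 signals of 7.23 in NC against 6.77 in NC+IL6, and 6.83 in HC against 6.99 in HC+IL6. Ccl28, a mucosal chemokine, reached the floor only in HC+IL6, at 6.43. Neither was called in any comparison, and Ccl19, Ccl21a and Ccl26 were not analysed here.

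Among the receptors, 14 were measured and 4 were above a floor. Ccr1, the receptor of Ccl3, Ccl5, Ccl6 and Ccl9, had log2 signals of 5.77 in NC against 9.91 in NC+IL6, and 7.57 in HC against 11.91 in HC+IL6. It was at least 9.12-fold higher with IL6 in normoxia and 20.2-fold higher in hypoxia, and HC+IL6 was 3.98-fold above NC+IL6. In HC+IL6 over NC+IL6 the log2 ratios of these ligands were 1.10 for Ccl6 (brighter probe set), 0.00 for Ccl5, -0.05 for Ccl9 and -0.10 for Ccl3. Ccr2, the receptor of Ccl2, had log2 signals of 6.58 in NC and 7.498 in NC+IL6, and of 7.94 in HC and 9.05 in HC+IL6. HC was at least 2.32-fold above NC, a call lost with quantile scaling, and HC+IL6 was 2.92-fold above NC+IL6. The decoy-like Ccrl2 was 2.22-fold lower with hypoxia in the presence of IL6, and the scavenger Ackr4 was 2.17-fold lower in HC+IL6 than in HC.

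The genes nearest to a member in profile were sought for the 3 members with the widest range among those above the floor on at least 1 array, by the Euclidean distance between log2 signals centred on their mean over the 4 arrays. For Ccl2 they were Ptgs2, which encodes cyclooxygenase 2, at 0.41, the transcriptional inhibitor Id1 at 0.70 and Rgcc at 0.72, of 8728 genes searched. Ptgs2 read 9.72 in NC against 12.49 in NC+IL6, and 11.08 in HC against 13.66 in HC+IL6. For Ccl4 they were Cfp, which encodes the complement factor properdin, at 0.45, the kinase gene Ikbke at 0.60 and Ambp at 0.72, of 8555 genes. For Ccl6 they were Pfkfb3, a glycolytic regulator and hypoxia-inducible factor (HIF) target, at 0.29, Prelid2 at 0.30 and Trim47 at 0.31, of 8728 genes. In NC the signals of Ccl2, Ccl6, Id1, Rgcc and Trim47 were under the floor, so that these distances and their order rest partly on background. With 4 arrays many genes can lie close by, and the distances are descriptions.

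**Figure D3:**
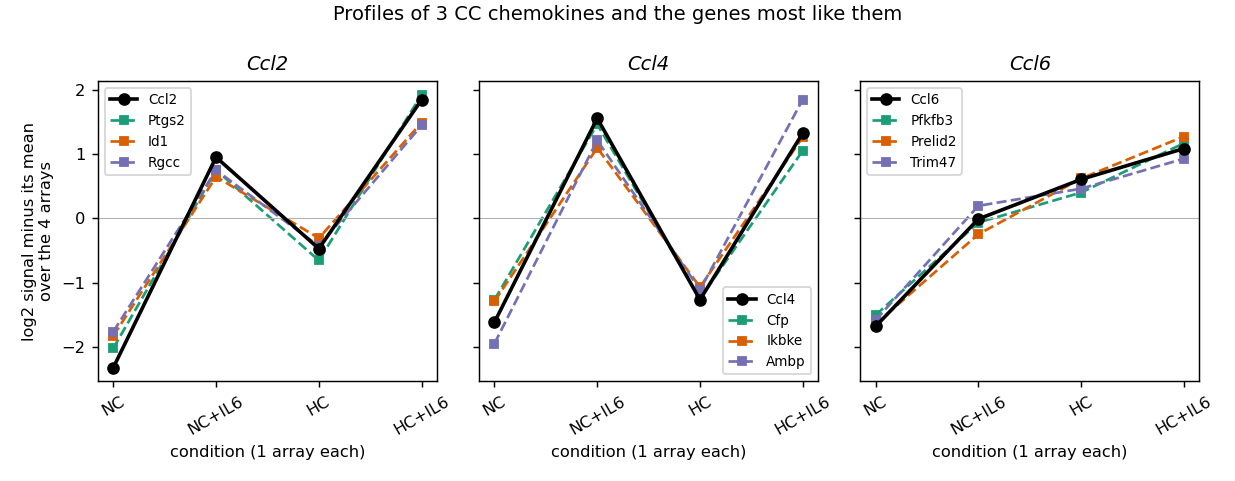
Log2 signal minus its mean over the 4 arrays (vertical axis) for Ccl2, Ccl4 and Ccl6 (black) and the 3 genes nearest to each (dashed), by condition. Ccl2 and Ccl4 are higher on both arrays with IL6 than on both without. Ccl2 and Ccl6 (brighter probe set) have their lowest value in NC and their highest in HC+IL6. For Ccl6 HC lies above NC+IL6, and its second probe set, not drawn, was highest in HC.

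Lists of NF-kB, interferon, STAT3, HIF and alternative activation genes were counted in the same way, and under the other scalings the counts below moved by at most 2 genes. Whether these pathways act on the members was not tested. Of 18 genes above the floor in a list of NF-kB outputs, 8 were called higher and 0 lower in NC+IL6 over NC, and 3 higher and 1 lower in HC+IL6 over HC. Its named members were Cxcl2, Ptgs2, Ier3 and Nfkbiz, and in NC+IL6 over NC these were higher by at least 50.7-fold and by 6.82-fold, 5.28-fold and 3.56-fold. In HC over NC, 5 genes of this list were called higher and 0 lower. With IL6 present, hypoxia went with 1 gene higher (Ptgs2) and 3 lower in this list. In that comparison the log2 ratios of the members above the floor were 1.10 for Ccl6, which was called, 0.89 for Ccl2, 0.00 for Ccl5, -0.05 for Ccl9, -0.10 for Ccl3 and -0.23 for Ccl4.

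Of the interferon-induced genes, 12 of 16 were called higher in NC+IL6 over NC and 11 of 16 lower in HC+IL6 over NC+IL6. Usp18, a negative regulator of interferon signalling, was 9.23-fold lower in that second comparison, and Zbp1, a nucleic acid sensor, 5.70-fold lower. Ccl5 had equal signals on those 2 arrays as deposited, and log2 ratios from -0.12 to -0.33 under the other scalings. Of the IL6 and STAT3 outputs, 5 of 11 were called higher in NC+IL6 over NC and 3 of 12 in HC+IL6 over HC, with 0 lower, among them Socs3, the feedback inhibitor of STAT3, by 4.69-fold and 4.90-fold. Of 15 HIF targets, 11 were called higher and 0 lower in HC over NC and 8 and 0 in HC+IL6 over NC+IL6, including Ankrd37 by 4.94-fold and 3.89-fold. Of 13 genes read as alternative activation, 6 were above the floor in HC+IL6 over NC+IL6 and 2 of these were called higher, the cytokine gene Il10 by 4.04-fold and Il4ra, which was named after its values were seen. Arg1, the arginase gene, was above the floor in HC+IL6 alone, with a bound of at least 1.45-fold, and was not called. Cd209a was not called either, and Socs1 was under the floor on both arrays.

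Of 8 regulators of chemokine mRNA decay, all were above the floor on at least 1 array of each comparison, Zc3h12a being under it in NC. Zfp36, which encodes the AU-rich element binding protein tristetraprolin, was 3.13-fold higher with IL6 in normoxia and 2.78-fold higher in hypoxia, and Zfp36l1 was 2.93-fold higher in HC than in NC. None of the other 6 was called. Of 7 enzymes that trim CC chemokines after secretion, 0 were above the floor on any array.

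**Figure D4:**
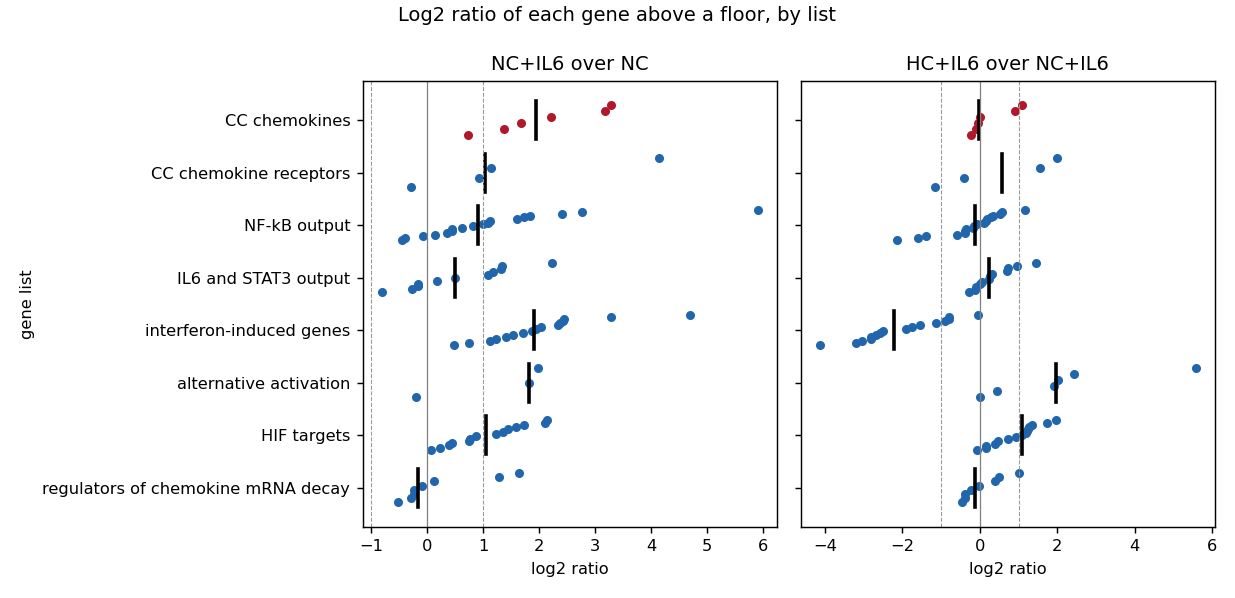
Log2 ratio (horizontal axis, signals as deposited) of each gene above a floor in 8 gene lists (vertical axis), with list medians as black bars, for NC+IL6 over NC and for HC+IL6 over NC+IL6. CC chemokines (red) have a median of 1.94 on the left and of -0.02 on the right, where interferon-induced genes lie lower, at a median of -2.21.

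Promoter windows were available for 5 of the 10 members (Ccl3, Ccl6, Ccl9, Ccl12 and Ccl22), and motifs were sought on both strands. The kB motif, GGG and CC with 5 free bases between them, was found in Ccl22 and Ccl9 and in 50.8% of all 32851 promoters of the same length. The AP-1 motif TGANTCA was found in Ccl9 and in 7.81% of all, and TATAAA in Ccl9 and Ccl12 and in 13.6% of all. The hypoxia response core ACGTG or GCGTG was found in Ccl22 and in 43.8% of all. The STAT motif TTCNNNGAA and the interferon motif, GAAA repeated with 2 free bases between, in 8.30% and 3.44% of all, were found in none of the 5, and no match says only that these letters are not in this window.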

How the data were processed

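RNA of 4 RAW264.7 cultures was measured on 1 array each. The authors deposited 1 table of log2 signals, which they made with MAS5 (no version is given). With 2% cut from either tail, the average signal of each array is 500.004. A signal of 1 or less is listed as 0. Gene symbols came from a table of the platform that lists 35890 of 45101 probe sets, of which 34958 with 1 symbol were used and 932 with several and 9211 not listed were left out. Of the 34958 used, 34754 matched RefSeq (GRCm38.p6) and the rest kept the symbol of the platform. Together they gave 18194 genes, each represented by its brightest probe set over the 4 arrays.

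Groups came from the sample titles. Ratios were taken between 2 arrays in 4 comparisons, with the floor and the 2-fold threshold given above and no test. Between 36.96% and 43.28% of probe sets were above the floor, which with 1 array per condition limits the precision. All 10 members were named, with up to 4 genes of each list above the floor, those with the largest absolute log2 ratio, and the 3 genes nearest to each of 3 members. The members and lists were chosen with earlier results of these data known. Python 3.11.15, numpy 2.4.6, pandas 2.3.3, scipy 1.17.1 and matplotlib 3.10.9 were used, with R 4.3.3 and limma 3.58.1 for quantile and cyclic loess scaling. Alternatives were 3 scalings, other floors, an added background signal, the mean over probe sets and a 1.5-fold threshold.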

Additional observations from a re-analysis of the deposited data

Results flagged for a closer look

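Cxcl2, a neutrophil attractant among the NF-kB outputs, moved in opposite directions with hypoxia. Its log2 ratio was 2.80 in HC over NC and -2.13 in HC+IL6 over NC+IL6, a difference of -4.93 that rests on 4 arrays and was not tested. Its signal in NC was under the floor, and with that signal raised to the floor the first ratio is a bound of at least 2.56. The CC chemokines Ccl2, Ccl3, Ccl4, Ccl6 and Ccl9 gave differences of -0.96, 0.03, -0.58, -1.19 and -0.28 in the same terms. Those of Ccl2 and Ccl6 likewise include a signal under the floor in NC. With that signal raised to the floor, the hypoxia log2 ratio of Ccl2 was at least 0.39 without IL6, against 0.89 with it. The sign of the Ccl2 difference is therefore not fixed. For Ccl6 the ratio was at least 1.27 without IL6, against 1.10 with it.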

How the results depend on the processing

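The calls of Ccl3 and Ccl4 with IL6 held at both oxygen levels under every alternative, and those of Ccl2 under all but a floor at the highest background probe set. For HC over NC, 1 member (Ccl6) was called with the values as deposited and 3 with no floor. With a floor at the 90th percentile or with the background median added to every signal, 2 were called, Ccl2 and Ccl6. Ccl2 was also called higher with no floor. The count was 0 with a floor at the highest background probe set or at a log2 signal of 7.5, a floor chosen after seeing the data. For HC+IL6 over NC+IL6 the count went from 1 to 0 with quantile scaling, cyclic loess, equal housekeeping medians, the mean over probe sets, or a floor at the highest background probe set or at 7.5, and to 2 with no floor or a 1.5-fold threshold. The member that the 1.5-fold threshold added there was Ccl2. For NC+IL6 over NC the count went from 3 to 9 with no floor. It was 5 with the 90th percentile or the background median added, and 6 with a 1.5-fold threshold. For HC+IL6 over HC it went from 3 to 8 with no floor. It was 4 with the 90th percentile, the background median added or a 1.5-fold threshold. A floor at the highest background probe set gave 2 here and in NC+IL6 over NC. With no floor Ccl24 was lower in HC over NC and NC+IL6 over NC and Ccl7 in HC+IL6 over NC+IL6, and these values lie in the background. Of 196 alternative values of 23 log2 ratios, 169 moved by no more than 1 SD and no called ratio reversed. Many of these could not move. A gene above both floors keeps its ratio when the floors change but stay under it. A gene with 1 probe set keeps its ratio under the mean over probe sets. Settings that put a member under the floor on both arrays were left out, so the tally is no measure of robustness.

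Equal housekeeping medians moved the median log2 ratio of all genes from 0.05 to -0.15 in HC over NC, from 0.04 to -0.08 in HC+IL6 over NC+IL6, from -0.03 to -0.19 in NC+IL6 over NC and from -0.02 to -0.09 in HC+IL6 over HC. The share of all called genes that were higher was 77.5% in HC over NC, against 56.0% with quantile scaling, 60.8% with cyclic loess and 43.1% with housekeeping medians, and 64.0% in HC+IL6 over NC+IL6, against 46.4%, 46.4% and 46.3%. It was 77.3% in NC+IL6 over NC, against 56.4% with housekeeping medians, and 54.7% in HC+IL6 over HC, against 44.5%. The hypoxia log2 ratio of Ccl5 with IL6, 0.00 as deposited, was -0.23 with quantile scaling, -0.33 with cyclic loess and -0.12 with housekeeping medians. That of Ccl9 with IL6 turned from -0.05 to 0.04 with cyclic loess. The cause was not tested. No paired analysis was possible because each condition has 1 array. Signal over background limits the 4 members under the floor.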
